A study of Homo sapiens with 18 samples.

Results

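The SR splicing factor genes described here are the 10 genes SRSF1, SRSF2, SRSF3, SRSF4, SRSF5, SRSF6, SRSF7, SRSF9, SRSF10 and SRSF11, taken from a named list out of 20163 protein-coding genes of GENCODE release 44 placed on hg19. Each gene was given a window that ran from 5 kb before to 5 kb after its annotated span, and every peak that shared at least 1 base with a window was kept. The data are DRIP-seq maps of DNA-RNA hybrids in HCT116, a human colorectal carcinoma cell line. Cells were untreated (NT) or received 10 μM camptothecin (CPT), a poison that traps topoisomerase I on nicked DNA, for 5 or 60 min, with 2 biological replicates of each of the 3 treatments. Cells were harvested without the drug before lysis, the DNA was cut with restriction enzymes, and a part of each digest was treated with RNase H, which degrades the RNA strand of hybrids, before the same immunoprecipitation. Each replicate was itself a pool of parallel DRIP samples, so the spread below is between pools of a single cell line.

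SR proteins carry RNA-binding domains followed by a tail rich in arginine and serine. They mark exons for the spliceosome as RNA is made, and several also travel with the mRNA to the cytoplasm. Their tails are phosphorylated by SRPK and CLK kinases, and topoisomerase I has itself been described as a kinase for these proteins. Loss of SRSF1 is known to let nascent RNA pair with its DNA template. Many SR genes limit their own output through poison exons, whose inclusion sends the transcript to nonsense-mediated decay.

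The 6 DRIP lists held 30314 to 72879 peaks and the 6 RNase H lists 473 to 67188. Replicate 2 had the longer list at every treatment in both assays. Its RNase H lists after CPT stood apart from those of replicate 1, with 50353 against 3439 peaks at 5 min and 67188 against 5392 at 60 min. The lists hold no read counts, so depth is unknown. In every list the lowest -log10 q was between 1.3011 and 1.31071, and a gene without a peak is a gene without a call at that limit, not a gene shown to lack hybrids. Differences between lists are therefore differences in what was called, not in hybrid level.

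In untreated cells the DRIP peaks of the SR genes lay mainly at gene starts, and after CPT peaks also lay along gene bodies and past gene ends. SRSF1, SRSF2, SRSF4, SRSF5, SRSF6 and SRSF7 had a start peak in both untreated lists. SRSF3 had no peak near its start in either untreated list and carried peaks at its start and in its body in all 4 CPT lists. SRSF9 had scattered small peaks, SRSF11 had peaks in replicate 2 after CPT only, and SRSF10 had no peak in any of the 12 lists.

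Many peak ends lay at restriction cuts, which are shown because they set how finely a hybrid could be placed. The digest used Hind III (AAGCTT), Eco RI (GAATTC), Xba I (TCTAGA), Ssp I (AATATT) and Bsr GI (TGTACA). Of the 412 ends of SR gene DRIP peaks, 185 (44.9%) fell inside such a site, against 30.1% of the ends of all DRIP peaks and 1.17% of the bases of the genome. All 20 end positions that at least 3 DRIP lists shared fell inside a site. The most widely shared end is printed for 7 of the genes with 10 bases on either side of the site, from the GRCh37 genome, on the strand of the gene and with the site in capitals.
SRSF5, chr14:70232470-70232495: atgaatggacAAGCTTatcccttaca
SRSF3, chr6:36578460-36578485: ccatgtgggtTCTAGActgtgatgcc
SRSF4, chr1:29508239-29508264: atgccgcgggTGTACAtcggccgcct
SRSF6, chr20:42085405-42085430: tttcaacccgAAGCTTaaggatattg
SRSF7, chr2:38978858-38978883: gcggttaaatTGTACAgcctttcata
SRSF2, chr17:74733100-74733125: gtcggcgacgTGTACAtcccgcggga
SRSF9, chr12:120935570-120935595: taccttctatAATATTcattgacaga
Positions are given in bases from the start of the canonical transcript, negative before it. The Hind III site at -1378 of SRSF5 opened a peak in all 6 DRIP lists, and the one at -1120 of SRSF6 in 5 of them. The Xba I site at 16335 of SRSF3 closed a peak in 5 DRIP lists. The windows had 1.22 to 2.35 sites per kb, with the fewest in SRSF1 and the most in SRSF2. SRSF10 had 2.03 and SRSF11 2.14 sites per kb, within the range of the genes with peaks.

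The highest point of the top-ranked DRIP peak lay outside annotated UTRs in 4 of the genes with peaks in at least 5 DRIP lists. Its 200 surrounding bases are shown for these 4 on the strand of the gene, because their sequence can be printed whole, with runs of 3 or more G in capitals.
SRSF6, chr20:42085361-42085560, summit at -1076: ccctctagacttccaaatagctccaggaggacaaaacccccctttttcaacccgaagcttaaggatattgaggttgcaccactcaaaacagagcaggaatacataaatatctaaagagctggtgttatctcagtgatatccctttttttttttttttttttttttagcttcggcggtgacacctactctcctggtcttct
SRSF1, chr17:56085489-56085688, summit at -981: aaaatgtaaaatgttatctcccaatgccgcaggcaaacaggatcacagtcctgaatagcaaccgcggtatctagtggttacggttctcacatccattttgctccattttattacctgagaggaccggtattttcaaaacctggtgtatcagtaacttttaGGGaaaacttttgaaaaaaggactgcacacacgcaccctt
SRSF5, chr14:70232581-70232780, summit at -1179: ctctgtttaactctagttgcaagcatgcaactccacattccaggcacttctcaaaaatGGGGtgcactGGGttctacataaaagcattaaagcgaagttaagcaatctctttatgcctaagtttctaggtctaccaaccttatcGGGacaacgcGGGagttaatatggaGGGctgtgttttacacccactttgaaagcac
SRSF3, chr6:36567060-36567259, summit at 5020, in an intron: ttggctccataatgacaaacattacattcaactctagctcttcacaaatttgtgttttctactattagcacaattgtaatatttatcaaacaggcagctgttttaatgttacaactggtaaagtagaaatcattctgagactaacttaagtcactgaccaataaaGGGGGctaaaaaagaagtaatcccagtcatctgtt
The GC content of these stretches was 41.0% for SRSF6, 42.0% for SRSF1, 43.5% for SRSF5 and 33.5% for SRSF3. The summit stretches that touch UTRs and are not shown had more, with 69.0% for SRSF4, 64.5% for SRSF2, 59.5% for SRSF7 and 56.5% for SRSF9. On the strand of the gene the SRSF6 stretch held no run of 3 G but 4 runs of 3 or more C. A GGG is common at summits: 97.8% of the 200-base stretches around all DRIP summits held GGG on either strand. The first kilobase of the canonical transcript had a median GC content of 61.0% over the 10 genes and of 58.0% over all genes, and a median GC skew, (G-C)/(G+C) on the coding strand, of 0.10 against 0.05. SRSF1 had the highest skew, 0.19, and SRSF9 was the only SR gene below 0, at -0.04. SRSF3 had the lowest GC content, 45.4%.

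**Figure D1:**
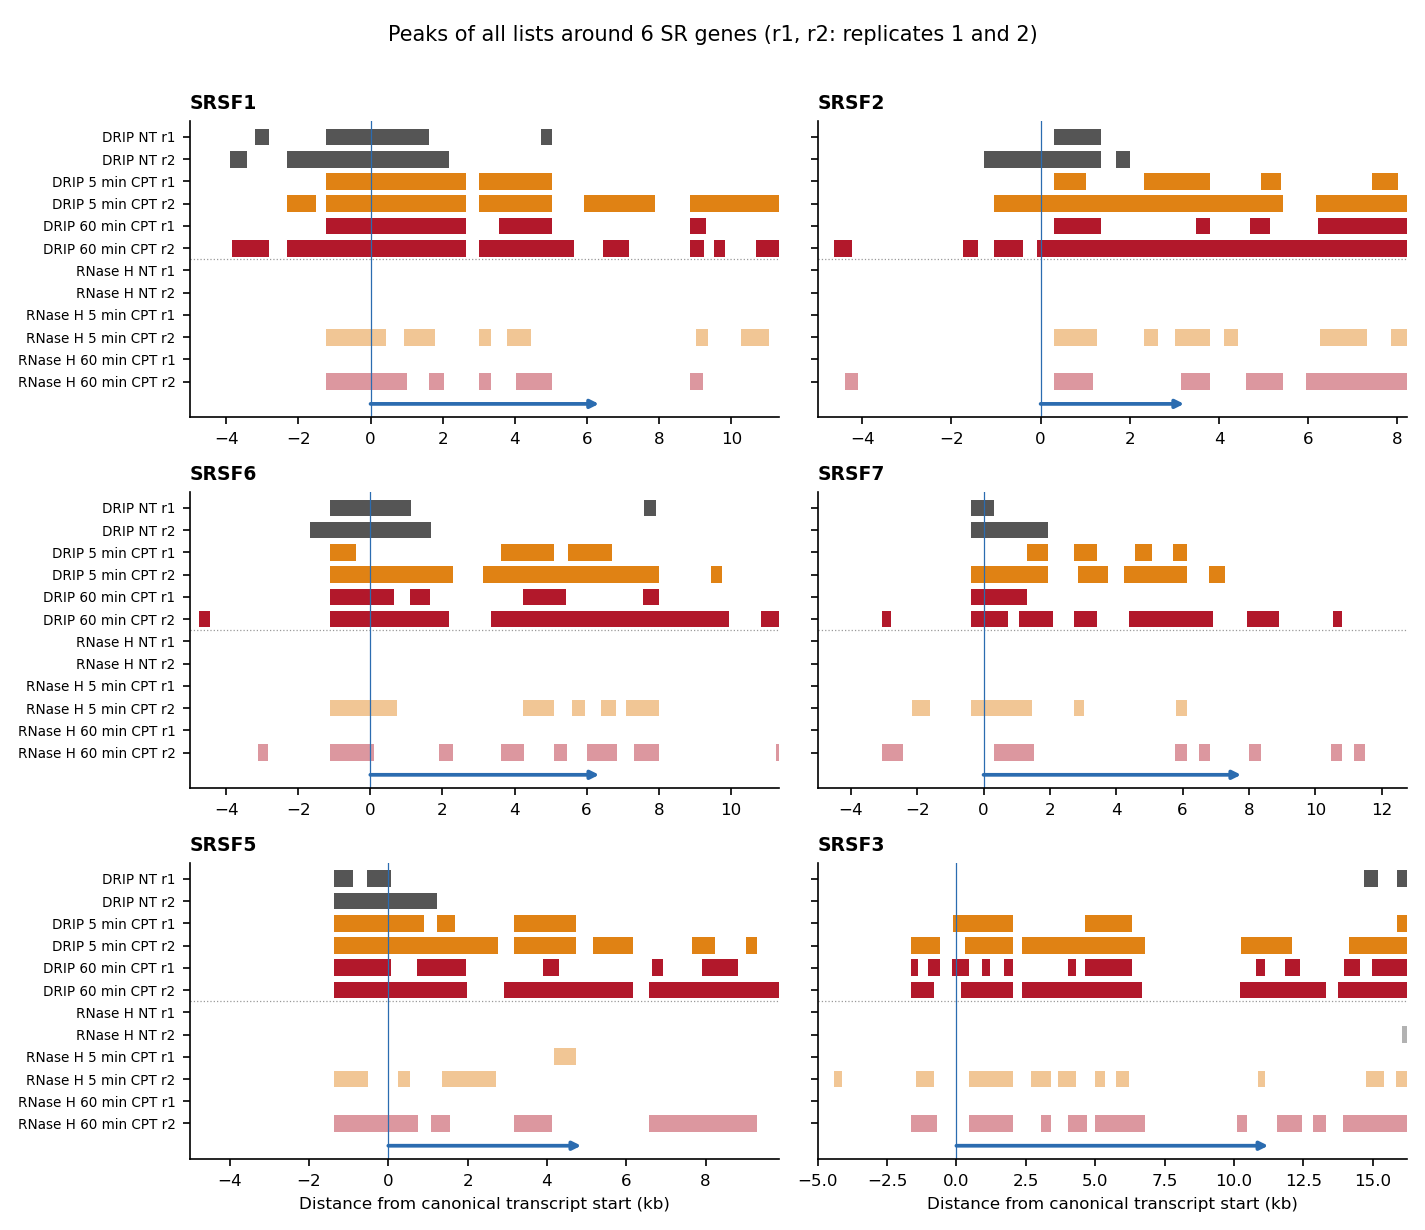
Peaks of all 12 lists at SRSF1, SRSF2, SRSF6, SRSF7, SRSF5 and SRSF3, by distance in kb from the start of the canonical transcript (blue arrow, start to end). Each row is a list, coloured by treatment, with RNase H lists paler and under the dotted line. Untreated peaks sit at the starts of 5 of the genes, CPT rows reach further along the genes in most lists, and RNase H rows hold peaks almost only in replicate 2 after CPT.

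Counted as genes with a peak, the family hardly moved. A DRIP peak was present in both untreated lists at 7 of the 10 windows, against 44.8% of all protein-coding genes. At 5 min it was 8, against 48.8%, and at 60 min 8, against 58.8%. The gene added was SRSF3, which had 2 peaks in NT replicate 1, both beyond its 3′ end, and none in NT replicate 2. No SR gene went from no peak in either untreated list to a peak in both CPT lists, a pattern that 4.6% of all genes showed at 5 min and 6.85% at 60 min. No SR gene went the other way, which 2.16% of genes did at 5 min and 1.54% at 60 min. SRSF1, SRSF2, SRSF4, SRSF5, SRSF6, SRSF7 and SRSF9 had a peak in all 6 DRIP lists, as had 6651 genes in all (33.0%). The pattern of SRSF3, all lists except NT replicate 2, was shared by 349 genes (1.73%). That of SRSF11 was shared by 295 (1.46%), and that of SRSF10, no peak in any DRIP list, by 3493 (17.3%).

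The change was in how much of each window lay under peaks. The 10 windows span 314.436 kb. DRIP peaks covered 12.502 kb of them in NT replicate 1 and 22.998 kb in NT replicate 2. At 5 min the values were 26.262 and 74.208 kb, and at 60 min 38.211 and 92.615 kb. Every CPT list covered more than either untreated list. The mean was 17.8 ± 7.42 kb untreated (SD, n = 2 at each treatment), 50.2 ± 33.9 kb at 5 min and 65.4 ± 38.5 kb at 60 min. The difference was 32.5 kb at 5 min and 47.7 kb at 60 min, each with a two-sided exact permutation p of 0.333, the smallest that 2 libraries against 2 can give. Replicate 2 carried more of it: without replicate 2 the differences were 13.8 and 25.7 kb, and without replicate 1 they were 51.2 and 69.6 kb. They also depended on RNase H signal. With every DRIP peak that met an RNase H peak removed, the differences were 4.87 kb at 5 min and 9.13 kb at 60 min, the CPT and untreated lists overlapped, and the exact permutation p was 0.667 at both times. With only the shared bases subtracted they were 18.5 and 26.1 kb. Over all genes the mean share of a window under DRIP peaks went the other way at 5 min, from 6.49% to 3.48% in replicate 1 and from 11.6% to 8.58% in replicate 2. At 60 min it stood at 7.34% and 15.6%. Over the SR genes the mean share went from 5.97% to 12.6% and 16.3% in replicate 1, and from 10.4% to 32.5% and 38.4% in replicate 2.

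**Figure D2:**
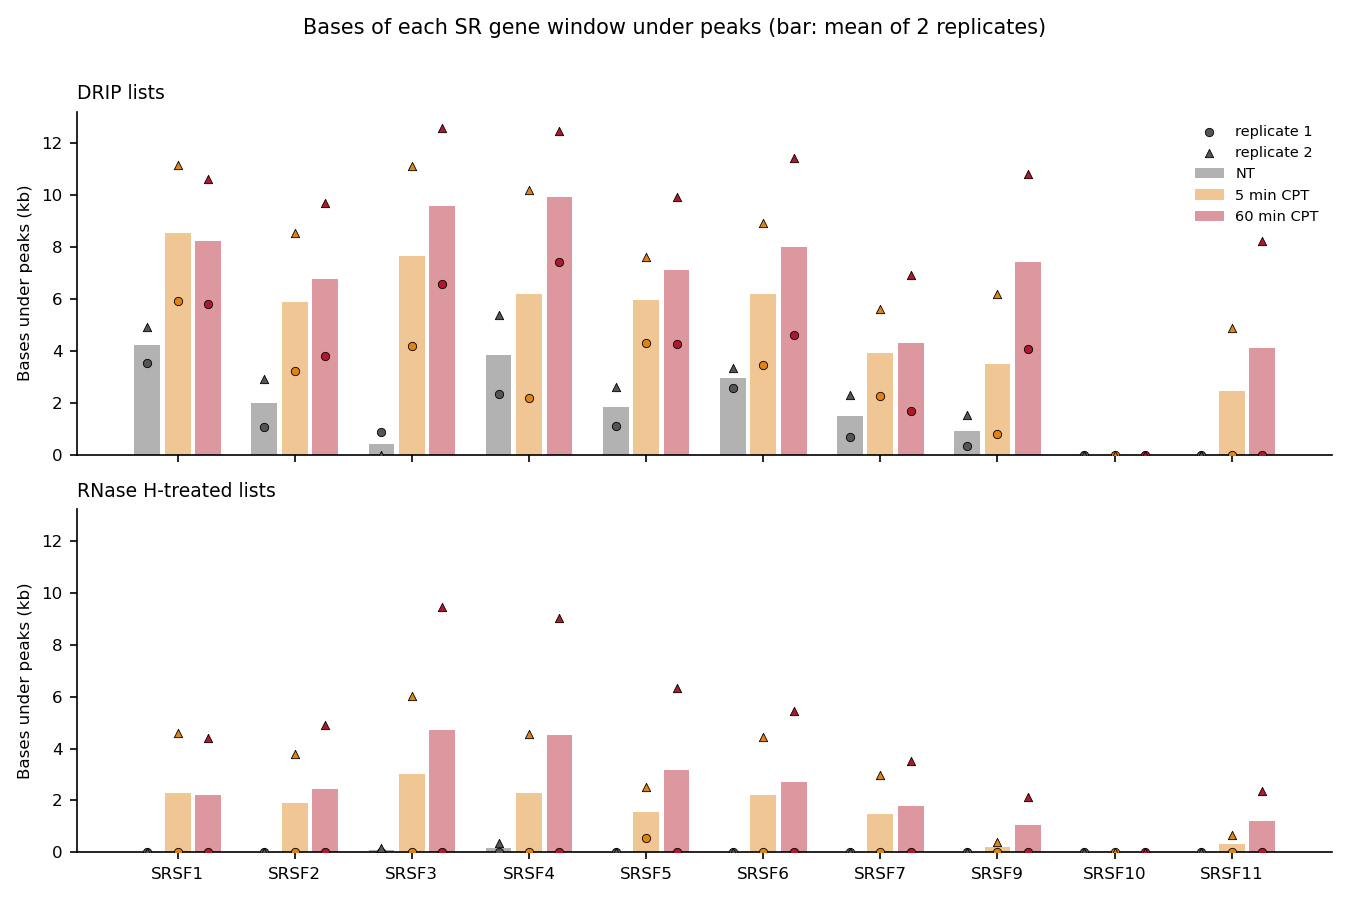
Bases under peaks in each SR gene window, in kb, for DRIP lists (top) and RNase H lists (bottom); points are replicates 1 (circles) and 2 (triangles) and bars their mean. Replicate 2 exceeds replicate 1 in every CPT pair with a peak, SRSF10 is at 0 throughout, and the RNase H bars of CPT rest on replicate 2 almost alone.

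Gene by gene, covered bases were higher in both 5 min lists than in both untreated lists at 5 windows (SRSF1, SRSF2, SRSF3, SRSF5 and SRSF6), against 13.9% of all genes. At 60 min this held for 7, with SRSF4 and SRSF9 added, against 24.4%. None was lower in both lists, which 14.8% of genes were at 5 min and 6.62% at 60 min. Compared only with the untreated list of the same replicate number, 7 windows were higher in both replicates at 5 min (20.6% of genes) and 8 at 60 min (37.2%). None was lower in both, as 25.0% and 14.0% of genes were. These counts lean on peaks that RNase H lists also held. When whole DRIP peaks that touched an RNase H peak of their matched library were removed, 1 window stayed higher in both lists at 5 min (SRSF5) and 1 at 60 min (SRSF9). When only the bases shared with RNase H peaks were taken away, 5 stayed higher at 5 min and 6 at 60 min, with SRSF4 lost. The share of all genes left by either removal was not counted. Removal acted mostly on the CPT lists of replicate 2. There 33.0% of all DRIP peaks met an RNase H peak at 5 min and 49.0% at 60 min.

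Set out along the transcript, the added cover lay mainly beyond the start. The start zone was taken as 2 kb on either side of the canonical start, the body zone as the rest of the transcript and the downstream zone as the 5 kb after its end. Start zones sum to 40.01 kb, of which DRIP peaks covered 9.258 and 17.386 kb in NT replicates 1 and 2, 11.243 and 23.198 kb at 5 min, and 14.741 and 22.566 kb at 60 min. The groups overlapped at both times, with an exact permutation p of 0.667 each. Covered start bases were higher in both CPT lists for SRSF3 and SRSF5 alone, so 2 genes at either time, against 7.54% of all genes at 5 min and 14.6% at 60 min. None was lower, against 6.13% and 3.06%.

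Body zones sum to 109.638 kb. Peaks covered 1.34 and 3.695 kb of them in the untreated lists, 12.277 and 30.815 kb at 5 min, and 11.606 and 35.019 kb at 60 min. Both CPT times lay above both untreated lists, by 19.0 kb on average at 5 min and 20.8 kb at 60 min, with the same exact permutation p of 0.333. Body cover was higher in both 5 min lists in 6 genes (SRSF1, SRSF2, SRSF3, SRSF5, SRSF6 and SRSF7), against 12.5% of genes with a body zone. At 60 min it was higher in 6 (SRSF1, SRSF3, SRSF4, SRSF5, SRSF6 and SRSF9), against 22.9%. None was lower, against 13.6% and 6.43%. Within replicate numbers the counts were 8 at 5 min (15.9% of genes) and 6 at 60 min (30.2%), with none lower (19.4% and 12.0%). Removal of whole peaks met by RNase H left 2 genes at 5 min and 1 at 60 min, and removal of the shared bases alone left 6 and 6. Shares of all genes after these removals were not counted. The mean share of a body zone under peaks over the 10 genes was 1.07% and 1.97% in the untreated lists, 30.1% and 51.7% at 5 min, and 13.9% and 53.0% at 60 min. This mean gives short and long bodies the same weight. In replicate 1 the short body of SRSF2 was 74.7% covered at 5 min and 0.0% at 60 min. Summed body cover of replicate 1 was 12.277 and 11.606 kb at these times. Over all genes it was 7.29% and 12.4% untreated, 3.72% and 8.93% at 5 min, and 8.34% and 17.3% at 60 min.

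Downstream zones sum to 50 kb. They held 1.207 and 0.551 kb of peaks in the untreated lists, 2.32 and 17.933 kb at 5 min, and 7.513 and 22.81 kb at 60 min. The 5 min value of replicate 1 stood only 1.113 kb above its untreated partner, while that of replicate 2 stood 17.382 kb above. Cover was higher in both lists for SRSF2 and SRSF6 at 5 min, 2 genes against 2.49% of all genes. At 60 min it was higher for SRSF1, SRSF2, SRSF3, SRSF5 and SRSF6, 5 genes against 7.5%. None was lower, against 10.0% and 5.79%. Without the DRIP peaks that met RNase H peaks, 0 and 1 remained, and without the shared bases 2 and 5. Here too, shares of all genes were not counted.

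**Figure D3:**
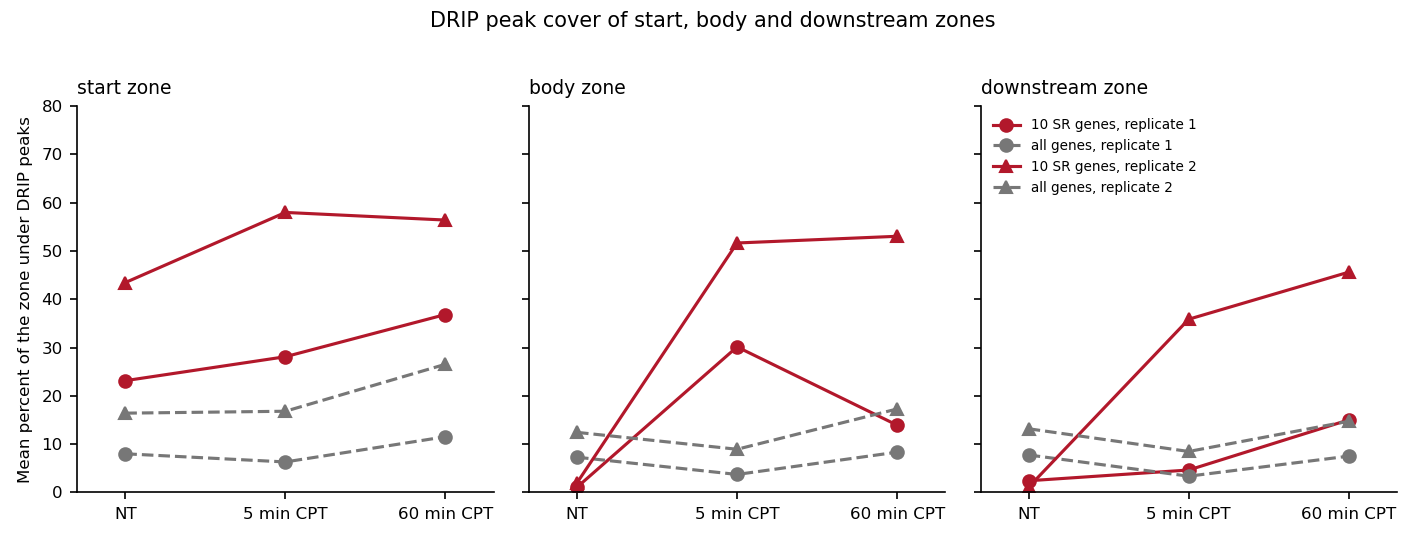
Mean percent of the start, body and downstream zones under DRIP peaks for the 10 SR genes (solid red) and for all protein-coding genes (dashed grey), with circles for replicate 1 and triangles for replicate 2. In the body zone the SR genes start below all genes in the untreated lists, at 1.07% and 1.97%, and in each of the 4 CPT lists lie above all genes of the same list.

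In 250-base steps from the start, the step centred 1125 bases downstream was under a peak in 3 and 6 SR genes untreated. It was so in 5 and 8 at 5 min and in 7 and 9 at 60 min. The shares of all genes there were 10.7% and 20.6% untreated and 8.59% and 22.3% at 5 min. At 60 min they were 15.9% and 34.6%. The step centred at 3375 bases was under a peak in 0 and 0 genes untreated, in 4 and 7 at 5 min, and in 1 and 9 at 60 min. Of all genes that step was under a peak in 7.99% and 13.8% untreated, 7.61% and 15.01% at 5 min, and 14.6% and 32.1% at 60 min, so the 1 of 10 in 60 min replicate 1 lay below the share of all genes. For the shortest gene, SRSF2, that step already lies past the transcript end.

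**Figure D4:**
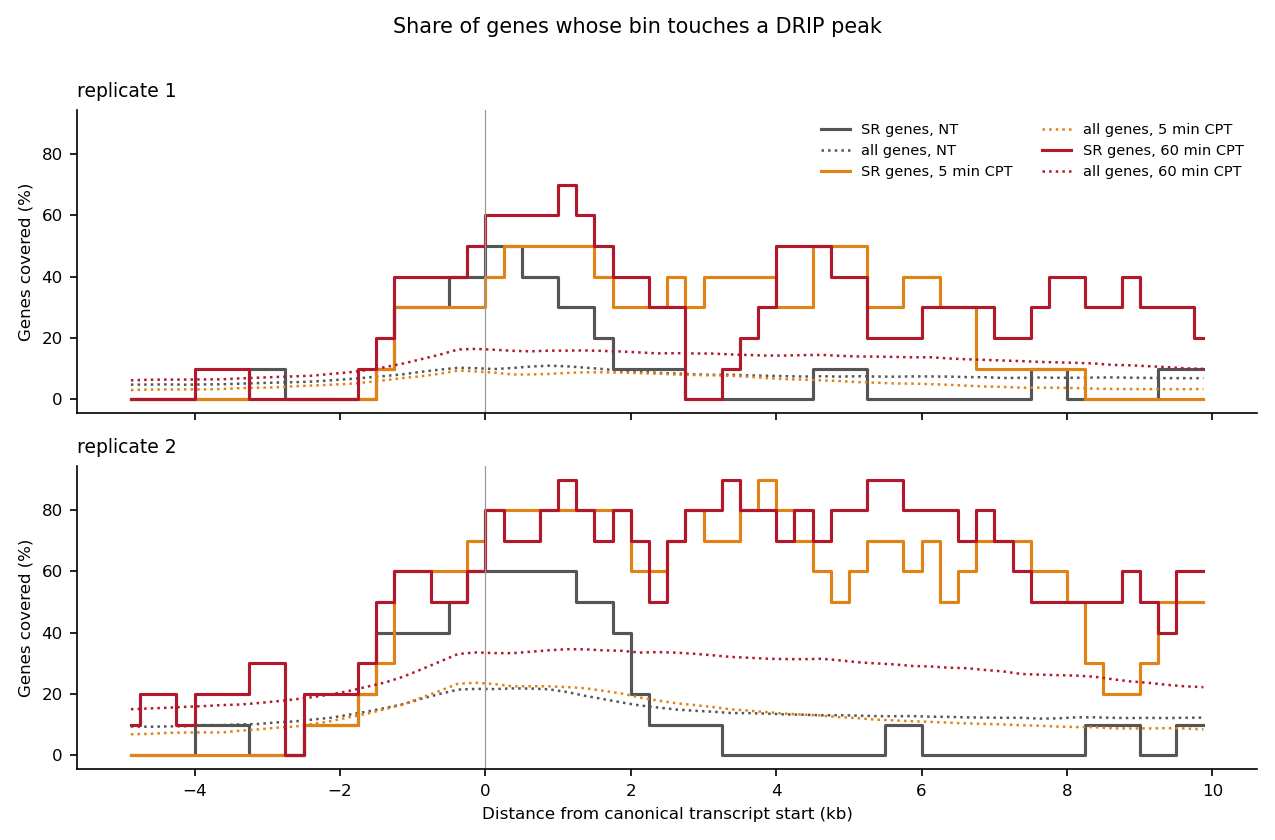
Percent of the 10 SR genes (solid) and of all protein-coding genes (dotted) whose 250-base step touches a DRIP peak, by distance in kb from the canonical start, for replicate 1 (top) and replicate 2 (bottom). The untreated SR gene line is at 0 in the steps centred from 3375 to 4375 bases in both replicates, where the 5 min line of replicate 2 runs from 7 to 9 genes of 10.

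Among the SR proteins with paired RNA-recognition domains, SRSF1 (chr17:56078280-56084707, minus strand) acts in constitutive and alternative splicing. Its window held 3530 and 4927 covered bases in NT replicates 1 and 2, 5912 and 11154 at 5 min, and 5795 and 10632 at 60 min. All 4 CPT values lay above both untreated ones. Untreated peaks covered 71.0% and 100% of the start zone but 7.51% and 3.74% of the body zone. The body share was 62.0% and 71.7% at 5 min and 48.8% and 75.6% at 60 min. The DRIP peaks over its start and body also overlap ENSG00000266086, so these bases cannot be assigned to SRSF1 alone. A peak from 2993 to 5037 bases after the start had the same ends in both 5 min lists, where it ranked at the 97.1 and 99.3 percentile by enrichment within its list. Untreated replicate 1 had only a 325-base peak there, at percentile 5.43. Both ends of the 5 min peak lay at restriction sites, Bsr GI at 2993 and Eco RI at 5037. Percentiles place a peak within its own list and are not levels across lists.

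SRSF6 (chr20:42086533-42094686, plus strand), a regulator of alternative splicing, followed the same course. Its covered bases were 2580 and 3340 untreated, 3436 and 8929 at 5 min, and 4593 and 11421 at 60 min, with no overlap between CPT and untreated lists. The body zone had no covered base in either untreated list. It had 2340 and 3513 bases at 5 min and 1181 and 3191 at 60 min. The start peak was 730 bases in 5 min replicate 1, against 2236 in its untreated partner, and 3401 bases in 5 min replicate 2. The peak over the body then ranked at percentile 98.9 in replicate 1, above the 94.9 of the start peak. In 60 min replicate 2 a single body peak of 6604 bases reached past the transcript end. The body peaks also overlap ENSG00000288000, so these bases cannot be assigned to SRSF6 alone.

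SRSF5 (chr14:70193617-70238722, plus strand) has an annotated span that includes a long upstream transcript, so its window of 55106 bases is mostly 5′ of the canonical start at 70233859. Covered bases were 1107 and 2605 untreated, 4287 and 7605 at 5 min, and 4281 and 9919 at 60 min. The untreated and CPT values did not overlap at either time. Its body zone had 0 and 0 covered bases untreated, 1569 and 2345 at 5 min, and 409 and 1944 at 60 min. A peak from the Eco RI site at 3177 to the Bsr GI site at 4745 stood in both 5 min lists. Within it lay the only RNase H peak of the family in replicate 1, 573 bases wide, at 5 min.

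SRSF4 (chr1:29474255-29508412, minus strand) has the longest tail of the classical family and the longest canonical transcript here. Its covered bases were 2347 and 5364 untreated, 2166 and 10199 at 5 min, and 7417 and 12449 at 60 min. At 5 min the lists overlapped the untreated range, and replicate 1 was slightly below its partner. At 60 min both were above. In 60 min replicate 2 a single peak of 10148 bases ran from 159 to 10306 bases after the start. A small region 31959 bases after the start, near the 3′ end, was under a peak in both untreated lists, in 5 min replicate 2 alone and in neither 60 min list. RNase H peaks also lay in this region in NT replicate 2, over 346 bases, and in 5 min replicate 2.

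SRSF9 (chr12:120899475-120933749, minus strand) has a short arginine-serine tail. Its covered bases were 332 and 1529 untreated, 781 and 6183 at 5 min, and 4076 and 10796 at 60 min. The 60 min lists lay above both untreated lists and the 5 min lists did not. No untreated list had a peak in the start zone. The annotated span runs far upstream of the canonical start at 120907551, and the neighbours GATC, DYNLL1 and ENSG00000111780 lie in the window. The top-ranked SRSF9 peak, at percentile 95.9 in 60 min replicate 1, had its summit at -26928 from the canonical start, over DYNLL1. Values of SRSF9 are therefore partly values of its neighbours, and which gene's RNA was in the hybrid cannot be told apart from peaks without strand.

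Among the proteins with a single RNA-recognition domain, SRSF3 differed most between treatments. SRSF3 (chr6:36562130-36573377, plus strand) is the smallest SR protein and couples splicing to export and 3′ end processing. Covered bases were 863 and 0 untreated, 4185 and 11135 at 5 min, and 6575 and 12585 at 60 min. Every CPT value lay above both untreated ones, and no untreated peak lay within the gene. The start zone went from 0 in both untreated lists to 2107 and 2743 bases at 5 min, and the body zone from 0 to 1722 and 5455. The peak that lay 4635 to 6334 bases after the start in replicate 1 ranked at percentile 96.7 at 5 min and 96.1 at 60 min. Without the flanks, SRSF3 was the only SR gene with no peak in either untreated list and one in both lists at either CPT time.

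SRSF7 (chr2:38970741-38978636, minus strand), which has a zinc knuckle and takes part in mRNA export, moved less evenly. Its covered bases were 686 and 2309 untreated, 2270 and 5597 at 5 min, and 1669 and 6901 at 60 min. Replicate 1 stayed below the untreated value of replicate 2 at both times, while within each replicate number both CPT values were higher. At 5 min the start peak was missing in replicate 1, which had a 644-base peak from 1296 to 1939, and the body zone held 1626 bases. At 60 min replicate 1 had the start peak again, 1669 bases wide, and no covered base in the body. In replicate 2 the body held 3288 and 3311 bases at the 2 times. In these lists the body cover of replicate 1 was present at 5 min and absent at 60 min. The peaks over its start also overlap GEMIN6, so these bases cannot be assigned to SRSF7 alone.

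SRSF2 (chr17:74730197-74733415, minus strand), a marker of nuclear speckles, is the shortest of the genes. Its covered bases were 1057 and 2924 untreated, 3225 and 8533 at 5 min, and 3805 and 9701 at 60 min, with no overlap. The start peak ranked at percentile 98.9 and 99.7 in the untreated lists. A peak that ended 3792 bases after the start, past the transcript end, was new in replicate 1 at both CPT times. In 60 min replicate 2 a single peak of 13600 bases ran from 90 bases before the start to 13509 bases after it. The peaks past the end overlap METTL23, and the start peak overlaps MFSD11, so these bases cannot be assigned to SRSF2 alone.

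SRSF10 (chr1:24290837-24307417, minus strand), which acts as a repressor of splicing when it loses its phosphates, and SRSF11 (chr1:70671365-70718735, plus strand), an atypical family member, were the genes without calls in replicate 1. SRSF11 had no DRIP peak in either untreated list or in either CPT list of replicate 1. In replicate 2 it had 9 peaks and 4873 covered bases at 5 min and 7 peaks and 8211 covered bases at 60 min, at most percentile 87.3 and 96.0. SRSF10 had 0 peaks in the 6 DRIP and 6 RNase H lists. The first kilobase of these 2 genes had 55.0% and 53.5% GC, lower than that of every other SR gene except SRSF3.

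**Figure D5:**
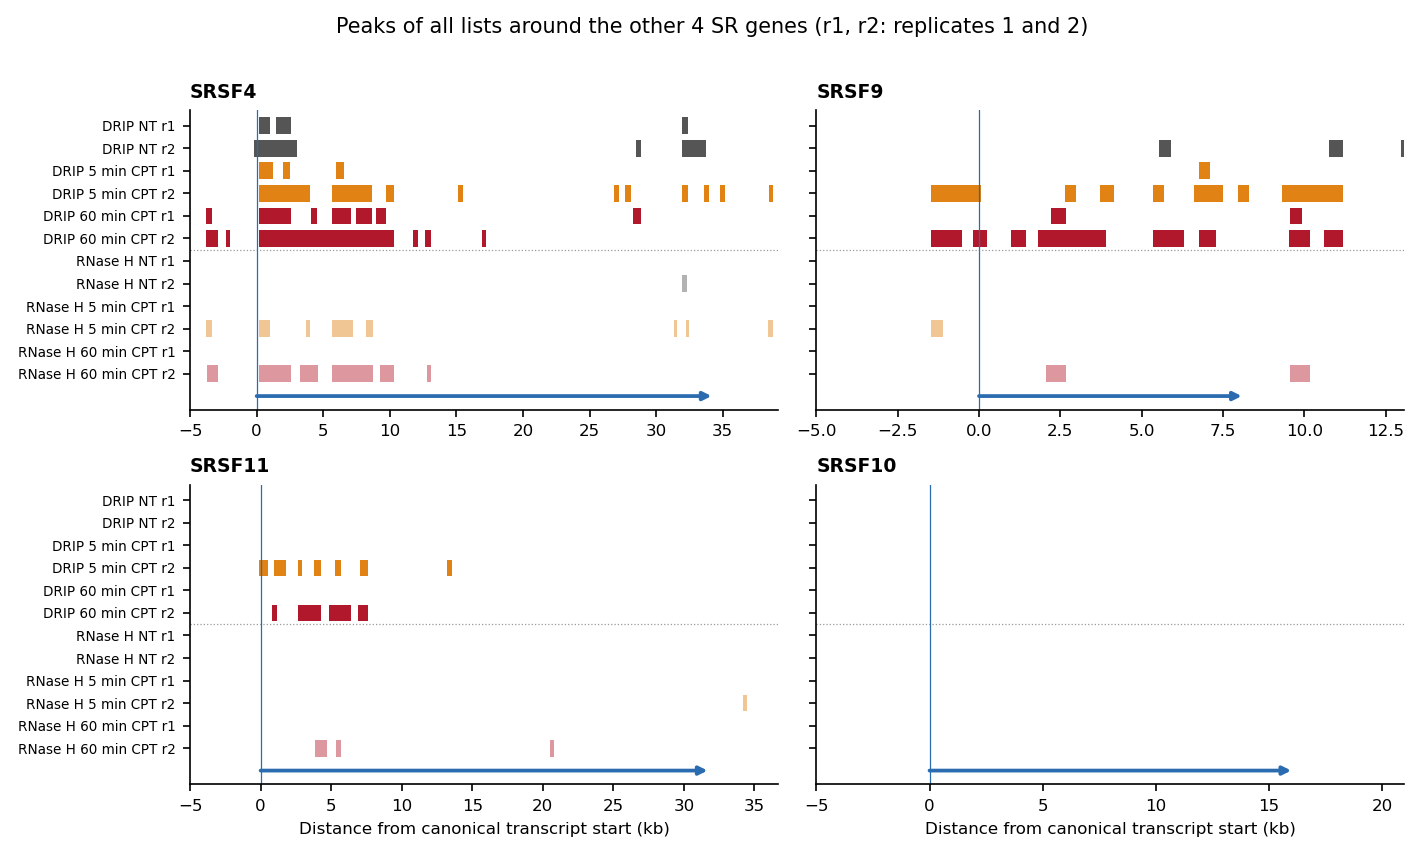
Peaks of the 12 lists at SRSF4, SRSF9, SRSF11 and SRSF10, drawn from 5 kb before to 5 kb after the canonical transcript (blue arrow), with distance from its start in kb. The SRSF9 and SRSF11 panels leave out the part of their windows upstream of that range; SRSF11 has DRIP peaks in replicate 2 after CPT only and the SRSF10 panel is empty.

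The annotation holds 15 internal exon stretches of these genes that occur only in transcripts marked for decay. DRIP peaks touched 1 and 2 of them in the untreated lists, 1 and 6 at 5 min, and 4 and 5 at 60 min. Of 6270 such stretches in all genes, DRIP peaks touched 4.91% and 9.59% untreated and 3.16% and 7.69% at 5 min. At 60 min they touched 5.84% and 13.8%. The 456-base stretch of SRSF3 (chr6:36567598-36568053), 5459 bases after the start, was under a DRIP peak in all 4 CPT lists and in neither untreated list. It was also under an RNase H peak in both CPT lists of replicate 2. RNase H peaks touched 3 of the 15 stretches in each of these lists and none in the other 4. Of the stretches in all genes they touched 4.47% and 9.28% in these lists at 5 and 60 min. In the other 4 the share was 0.0159% to 0.75%. The SRSF7 stretch close to the start, 315 bases long, was touched by DRIP peaks in both untreated lists and in 3 of the 4 CPT lists. The SRSF10 stretch of 363 bases was touched in none.

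Regions present in both lists of at least 1 treatment numbered 28518 in the genome, after overlapping peaks were merged, and 28 of them met an SR gene window. The 6 that were present in both lists at all 3 treatments were those that held the starts of SRSF1, SRSF2, SRSF4, SRSF5, SRSF6 and SRSF7. They made up 21.4% of the 28, against 13.0% of all regions with this pattern. Another 3 were in neither untreated list and in both lists at 5 and at 60 min, at the start of SRSF3, in the body of SRSF3 from 2376 to 6809 bases after its start, and at the 3′ end of SRSF5. In the genome 5.33% of regions had this pattern, against 10.7% of the 28. A further 3 (10.7%) appeared at 60 min only, below the 14.6% of all regions. None of the 28 fell in a loss class. Of all regions 7.87% were lost at both times, 1.53% at 5 min only and 0.83% at 60 min only. None of the 28 appeared at 5 min only, against 4.5%. The other 16 had a peak in only 1 replicate of some treatment and were given no class. Of all regions 52.3% were given no class, against 57.1% of the 28. Among the 16 without a class, the SRSF4 region near the 3′ end was in both untreated lists, in 1 list at 5 min and in neither 60 min list. It also held RNase H peaks in NT replicate 2 and 5 min replicate 2.

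Over the SR genes with a peak, the median percentile of the top peak was 86.0 and 97.5 in the untreated lists, 94.5 and 98.2 at 5 min, and 97.4 and 96.0 at 60 min. The lowest was SRSF3 in NT replicate 1, at 20.7, and SRSF9 stood at 41.7 in NT replicate 1 and 54.4 in 5 min replicate 1. The order was set by enrichment, and ranking by -log10 p moved a gene's percentile by a median of 0.93 and at most 18.5 points, the latter for SRSF3 in NT replicate 1, which stood at 39.2 by -log10 p.

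RNase H-treated DNA gave few peaks in these windows in untreated cells and in replicate 1, and many in replicate 2 after CPT. RNase H peaks covered 0.0 kb of the windows in NT replicate 1, 0.573 kb at 5 min and 0.0 kb at 60 min. In replicate 2 they covered 0.529, 29.953 and 47.627 kb. In the untreated list of replicate 2 only SRSF3, with 183 bases, and SRSF4, with 346, had any. In the 5 min list the genes with RNase H peaks ran from 395 bases at SRSF9 to 6014 at SRSF3, and in the 60 min list from 2136 at SRSF9 to 9439 at SRSF3. DRIP cover exceeded RNase H cover in 6 of 6 pairs of the same treatment and replicate, by 31.4 ± 13.2 kb (SD, n = 6 pairs), with a two-sided exact sign-flip permutation p of 0.03125, the smallest that 6 pairs can give. In each pair the RNase H list was also the shorter, and mean window cover over all genes was lower in it. That mean was 0.00899% against 6.49% in NT replicate 1 and 10.7% against 15.6% in 60 min replicate 2. The test therefore does not set these windows apart from all genes. After CPT the RNase H peaks of replicate 2 lay partly at the same places as the DRIP peaks. Some met no DRIP peak of the matched list, as past the end of SRSF11 at 5 min. At 5 min 37.4% of the DRIP-covered bases of these windows were also under RNase H peaks, and at 60 min 47.0%. Over all DRIP peaks the shares were 33.4% and 51.0%. Of single DRIP peaks, 22 of 52 (42.3%, 95% Wilson interval 29.9 to 55.8%) met an RNase H peak in 5 min replicate 2, against 33.0% of all DRIP peaks in that list. In 60 min replicate 2 it was 33 of 57 (57.9%, 45.0 to 69.8%), against 49.0%. In NT replicate 2 it was 1 of 14, against 10.8%. In replicate 1, whose RNase H lists were short, it was 0 of 15 untreated, 1 of 24 at 5 min and 0 of 44 at 60 min, against 0.45%, 2.79% and 1.70% of all DRIP peaks. The intervals cover counting error only. What the shared peaks of replicate 2 hold was not tested.

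Many of the peaks lay over more than the SR gene. Of the 206 DRIP peaks, 136 overlapped the span of the SR gene they were assigned to, 92 overlapped another protein-coding gene, 41 overlapped another gene alone and 29 no gene. SRSF3 and SRSF4 had no other protein-coding gene in their windows. Cover was higher in both 60 min lists at both genes, and in both 5 min lists at SRSF3 but not at SRSF4. With RNase H bases subtracted, SRSF4 was not higher at 60 min. With whole DRIP peaks met by RNase H removed, neither gene was higher at either time. How much of the added cover belongs to neighbours was not tested.

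Also counted were 26 other genes of the pathway, SR-related proteins, splicing partners and SR kinases. Window cover was higher in both lists in 10 at 5 min (13.9% of all genes) and in 15 at 60 min (24.4%). It was lower in both in none at either time, against 14.8% and 6.62% of all genes. Body cover was higher in 11 and 19, against 12.5% and 22.9% of all genes. It was lower in 1 at 5 min (CLK3, another SR kinase) and in none at 60 min, against 13.6% and 6.43%. Downstream cover was higher in 3 and lower in 5 at 5 min, against 2.49% and 10.0% of all genes. At 60 min it was higher in 5 and lower in 1, against 7.5% and 5.79%. Within replicate numbers, window cover was higher in 12 at 5 min and 20 at 60 min, against 20.6% and 37.2% of all genes. It was lower in 7 and 1, against 25.0% and 14.0%. Body cover within replicate numbers was higher in 12 and 21, against 15.9% and 30.2%. It was lower in 5 and 1, against 19.4% and 12.0%. The genes that gained a peak in both lists from none in either untreated list were CLK1 at 5 min, and SREK1, CLK1, CLK4 and TNPO3 at 60 min. Of all genes 4.6% did so at 5 min and 6.85% at 60 min. No gene of the list lost its peaks, against 2.16% and 1.54% of all genes. CLK1, a kinase that phosphorylates SR proteins in the nucleus, had 0 and 0 covered bases untreated, 2569 and 5077 at 5 min, and 4366 and 9725 at 60 min. CLK4, its relative, had 0 and 0 untreated and 565 and 4299 at 60 min. SREK1, an SR-related regulator, had 1634 and 6381 covered bases at 60 min, and TNPO3, the importin that carries SR proteins into the nucleus, had 1704 and 10806. In 5 min replicate 1 CLK4, SREK1 and TNPO3 had no DRIP peak. RNase H peaks also lay in these windows in replicate 2 after CPT, except in that of CLK4 at 60 min, and in replicate 1 at 5 min over 1064 bases at CLK1 and 388 at TNPO3.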

How the data were processed

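HCT116 cells were profiled by DRIP-seq in 12 peak lists: 6 DRIP and 6 RNase H lists, with 2 biological replicates at each of 3 treatments; 6 input samples had no list used here. Per the study's methods, reads were trimmed (Cutadapt) and mapped by BWA to hg19 together with a yeast spike-in genome; the authors then removed blacklisted and duplicate reads, and called peaks for each library with MACS2 against its paired input. The authors' spike-in scaling applied to read counts, which were not analysed here. The deposited narrowPeak values are the fold enrichment at the summit (column 7), −log10 p (column 8), −log10 q (column 9) and an integer score (column 5, not used). The calling threshold is not given in the sources used here; the lowest −log10 q was 1.3011 to 1.31071. Fold enrichment served only to rank peaks within a list. Depth is unknown.

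Gene spans, canonical transcripts (282 genes had none on this build) and decay-marked exons came from GENCODE 44 on GRCh37, and sequences from the GRCh37 genome. A peak belonged to a window if at least 1 base overlapped. Covered bases were counted once per list. Scripts used Python 3.11.15, pandas 2.3.3, NumPy 2.4.6, SciPy 1.17.1 and Matplotlib 3.10.9, and the counting was tested on simulated data. CPT and untreated totals were compared by exact permutation tests, and DRIP and RNase H totals by an exact sign-flip test over 6 pairs. The methods' limma test needs read counts and was not run. All 10 genes were named, and of 26 related genes those that gained or lost peaks. The members and lists were chosen with earlier results of these data known. Alternatives were a minimum -log10 q of 3, lists shortened to equal length, windows with no flank or 10 kb, 50% overlap, removal of RNase H signal, a looser absence rule, pairing by replicate number and each replicate left out; after the data were seen, the canonical transcript as gene model, zones, and subtraction of RNase H bases were added. The labels give shared replicate numbers but state no shared batch, and with 2 pairs the numbers were taken only as numbers. Where cultures were not stated to be separate, p-values measure only the spread between these samples. The sequence at one shared peak end is not reported here.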

Additional observations from a re-analysis of the deposited data

How the results depend on the processing

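Of 177 values recomputed under alternatives, 149 kept their direction and side of the threshold or, for counts, stayed within 1.5 times, 28 changed and 0 reversed. With a -log10 q of at least 3, 1 gene had higher start cover in both lists at 5 min. With lists cut to the shortest, 0% of the DRIP peaks were met by RNase H peaks, which the cut itself brings about, since it left 473 peaks in each RNase H list and 30314 in each DRIP list. Without the flank, and with the looser absence rule, 1 gene (SRSF3) was gained at 5 min and 1 at 60 min. With DRIP peaks met by RNase H removed, the CPT differences kept their sign but were 4.87 and 9.13 kb (exact permutation p 0.667), against 32.5 and 47.7 kb, and 1 window was higher at 5 min and 1 at 60 min, with 0 and 0 for the start, 2 and 1 for the body, and 0 and 1 downstream. With only RNase H bases subtracted, the differences were 18.5 and 26.1 kb, and start cover was higher in 1 and 1. The share of all genes left by either RNase H removal was not counted. The causes were not tested beyond the construction of each alternative. With no replicate block, the DRIP minus RNase H difference was 31.4 kb with an exact permutation p of 0.0736. With the replicate block, the CPT differences were 32.5 and 47.7 kb (exact sign-flip p 0.5, the smallest that 2 pairs can give). The genes higher within both numbers were 7 and 8 for the window, 2 and 2 for the start, 8 and 6 for the body, and 2 and 6 downstream. Shares of all genes under this rule are given above for window and body and were not counted for start and downstream. Leaving out each replicate in turn gave 0 to 2 genes gained at 5 min and 0 to 2 at 60 min. It gave 7 to 9 windows higher at 5 min, 3 to 5 starts at 5 min, 5 to 6 starts at 60 min, and 2 to 7 downstream zones at 5 min. Each of these counts sets 1 list against 1, a looser rule, and shares of all genes under it were not counted. The DRIP minus RNase H difference ran from 25.5 to 37.2 kb, with an exact permutation p of 0.25, the smallest that 3 pairs can give. The CPT differences ran from 13.8 to 51.2 kb at 5 min and from 25.7 to 69.6 kb at 60 min. The share of peaks met by RNase H was 1.2% without replicate 2 and 45.5% without replicate 1. Unknown depth and 2 lists a treatment limit all comparisons between treatments.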
